A study of Mus musculus with 12 samples.

Results

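The replication licensing genes were followed through newly transcribed and total RNA of mouse embryonic stem cells (mESCs). Members were taken by gene name: the 6 subunits of the MCM helicase ring (Mcm2, Mcm3, Mcm4, Mcm5, Mcm6 and Mcm7), Mcm10, the loading factors Cdt1 and Cdc6, and Gmnn. These are 10 of the 34079 annotated genes with a transcript in the deposited table, and they account for 32 of its 121429 exonic entries. Cells of the DTCM23/49 XY line were given 200 µM 4-thiouridine (4sU), a uridine analog that enters RNA during its synthesis, so that new RNA can be biotinylated and captured on beads. Labeled RNA and total RNA were sequenced after 15, 30 and 60 min in 2 biological replicates, which gave 6 labeled and 6 total RNA libraries. The replicates were made by dividing a single confluent culture, so p-values measure the spread between libraries from cultures of the same origin. The main comparisons treat the libraries as independent and do not pair labeled with total RNA, although libraries of a replicate share a culture. All cells were grown with serum and leukemia inhibitory factor, and every library, total RNA included, came from cells that had received 4sU.

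The MCM proteins form a ring of related subunits that becomes the motor of the replicative helicase. In G1 phase the origin recognition complex and Cdc6 hold the ring while Cdt1 brings it to DNA, and a pair of rings is left on each licensed origin. Gmnn (geminin) binds Cdt1 once S phase starts and prevents a second loading, whereas Mcm10 is needed later, when the loaded rings are switched on. mESCs divide rapidly with short gap phases and are known for abundant licensing proteins.

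The values are abundances per transcript length, and every library has nearly the same total. Judged from those totals they are about 20 times TPM, a usual unit of abundance per length, but the scaling is not stated. Exonic values follow mostly spliced RNA and intronic values follow unspliced RNA. The intronic share of the library total lay between 6.99% and 14.8% in labeled RNA and between 6.53% and 7.41% in total RNA. The labeled RNA libraries of replicate 2 at 15 and 60 min lay within the range of total RNA, unlike the other 4 labeled RNA libraries, and the results that rest on them are also given without them. All 10 mESC markers, Pou5f1 and Nanog among them, averaged at least 20 in total RNA. Of 8 fibroblast markers 2 did (Vim and Thy1), whereas Col3a1, Postn, Lum and Dcn had no exonic value in any library, and none of the 9 measured markers of differentiated cells did.

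In total RNA all 10 members were measured in every library, and the subunits Mcm4 and Mcm6 had the highest mean level per transcript. Here a gene's level is the mean exonic value over its annotated transcripts, because a sum rises with their number. The mean is in turn lowered where low transcripts are annotated. Mean levels of single transcripts ran from 35.6 to 720 in Mcm7 and from 67.8 to 400 in Mcm10. Mcm4 was at 542 in the lowest, 629 in the median and 680 in the highest of the 6 total RNA libraries, with a mean of 620 ± 46.2 (SD, n = 6). Mcm6 lay between 538 and 642, with a mean of 604 ± 41.1 (SD, n = 6). These levels overlapped, whereas every library of Mcm3 (456 ± 30.5, SD, n = 6) and Mcm2 (432 ± 22.0, SD, n = 6) was below both. By this mean the remaining subunits of the same ring were lower, with Mcm5 at 272 ± 29.2 and Mcm7 at 235 ± 33.2 (SD, n = 6 each). Among the regulators, Gmnn was at 295 ± 35.9, Cdt1 at 207 ± 35.6, Mcm10 at 175 ± 11.6 and Cdc6 at 127 ± 12.2 (SD, n = 6 each).

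Neighbors in this order were compared by an exact two-sided permutation test that flips the signs of their paired differences over the 6 libraries. The test treats the 6 libraries as independent, although libraries of the same replicate share a culture. The order was also taken from these same libraries, so the p-values of this test are descriptive only. Mcm6 exceeded Mcm3, Mcm2 exceeded Gmnn and Mcm10 exceeded Cdc6 in 6 of 6 libraries, each with p = 0.03125, the smallest this exact permutation test allows. None of the 9 neighboring pairs passed adjustment, the lowest adjusted p of the permutation tests being 0.0938, and with so few libraries this does not show that neighbors are alike. Summed over transcripts, the order begins with Mcm7 and Mcm10, which have 10 measured transcripts each, and 0 of 9 pairs passed there as well. By the highest transcript of each gene alone Mcm7 came first, at 720, ahead of Mcm4 at 620. That transcript of Mcm7 overlaps others of the gene, with which it shares reads.

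**Figure D1:**
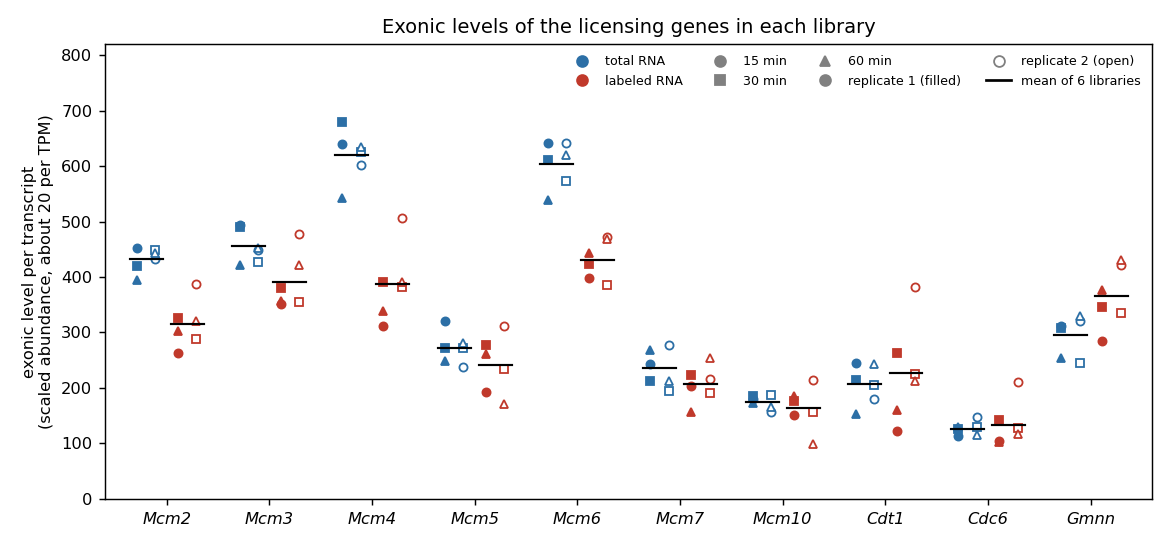
Exonic level per transcript (scaled abundance, vertical axis) of each licensing gene in the 6 total RNA (blue) and 6 labeled RNA (red) libraries, with the symbol giving the labeling time, the fill the replicate and the bar the mean. For Mcm2, Mcm4 and Mcm6 every labeled RNA library lies below every total RNA library, while the other 7 genes overlap.

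Labeled RNA was compared with total RNA to ask which transcripts make up more or less of what was newly made than of what had accumulated. Exonic levels of Mcm2, Mcm4 and Mcm6 were lower in labeled RNA, and no member was higher. The count of 3 of 10 lower stands beside 11.6% lower (5.28% higher, 16.8% in either direction) of the 13977 genes tested with limma on log2(value + 1) and Benjamini-Hochberg adjustment. The median log2 difference was -0.19 over the members and -0.05 over all genes tested.

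Mcm4 had labeled RNA levels of 312, 387 and 506 (lowest, median and highest library) against 542, 629 and 680 in total RNA. The log2 difference was -0.69 ± 0.12 (SE, limma adjusted p = 0.00416). Mcm6 had labeled RNA levels of 385, 433 and 472 against 538, 615 and 642, a log2 difference of -0.49 ± 0.09 (SE, limma adjusted p = 0.00637). Labeled and total RNA did not overlap for either gene. Mcm2, a subunit phosphorylated by the kinase Cdc7 when origins fire, had labeled RNA levels of 263, 312 and 388 against 394, 438 and 453. Its log2 difference was -0.46 ± 0.11 (SE, limma adjusted p = 0.0156), and its libraries did not overlap either. Such separation, with all labeled RNA libraries below all total RNA libraries, was seen in these 3 of 10 members and in 7.28% of all genes tested.

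The other 3 ring subunits had smaller log2 differences that were not called, at -0.23 ± 0.11 for Mcm3, -0.20 ± 0.15 for Mcm5 and -0.18 ± 0.13 for Mcm7 (SE). Their limma adjusted p-values were 0.159, 0.402 and 0.355. Mcm3 was lower in labeled RNA in 5 of 6 pairs of libraries of the same time and replicate, and Mcm5 in 3 of 6. Mcm10 was not called, with a log2 difference of -0.13 ± 0.16 (SE, limma adjusted p = 0.624).

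The loading factors and their inhibitor were not called in either direction. Cdt1 had labeled RNA levels of 122, 219 and 382 (lowest, median and highest library) around total RNA levels of 154, 210 and 245, so labeled RNA spread both below and above total RNA. Its log2 difference was 0.06 ± 0.24 (SE, limma adjusted p = 0.885). Cdc6, the ATPase that helps open the ring for DNA, had 102, 122 and 211 in labeled RNA and 114, 127 and 147 in total RNA, with a log2 difference of 0.04 ± 0.16 (SE, limma adjusted p = 0.896). Gmnn was the member with the highest log2 difference, 0.31 ± 0.13 (SE, limma adjusted p = 0.123), and was higher in labeled RNA in 5 of 6 pairs. Its labeled RNA levels of 284, 361 and 431 overlapped those of 245, 310 and 330 in total RNA.

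The exonic comparison was also made without the labeled RNA libraries whose intronic share resembles that of total RNA. Libraries like total RNA would make a difference smaller, so this fit cannot serve as support for the calls. Without the labeled RNA libraries of replicate 2 at 15 and 60 min, Mcm2, Mcm4 and Mcm6 were again lower, with log2 differences of -0.56, -0.83 and -0.54, and Mcm3 was also called (-0.34 ± 0.09, SE, limma adjusted p = 0.022). Of all genes, 14.7% were lower in that fit. Cdt1 and Cdc6 changed sign there, to -0.21 and -0.13, and stayed uncalled. With either replicate left out entirely, 0 of 10 members were called, and 0 or 5 of all 13977 genes.

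**Figure D2:**
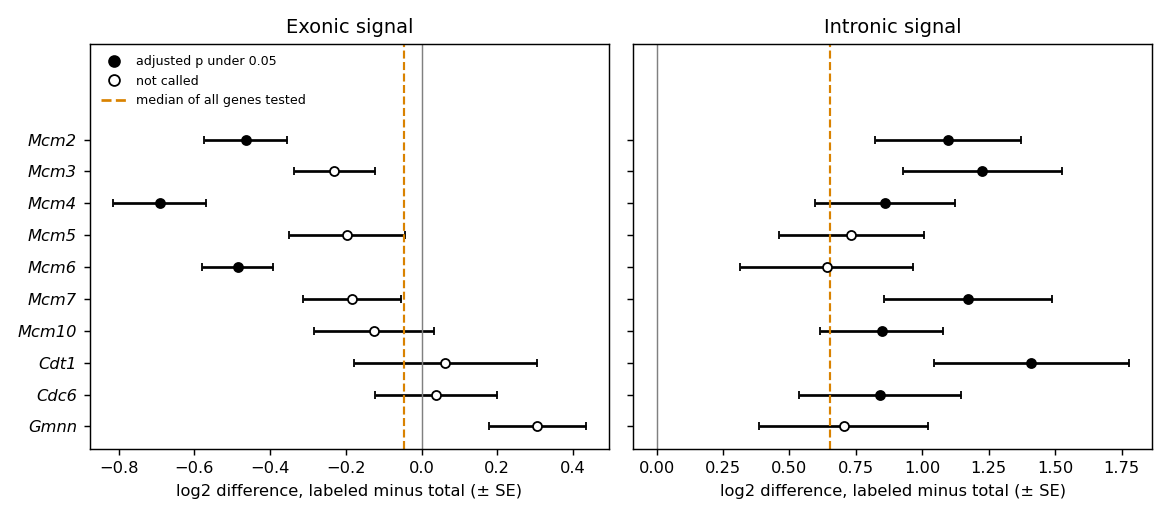
Log2 difference between labeled and total RNA (horizontal axis, with SE) for exonic signal (left) and intronic signal (right) of each licensing gene, filled where the limma adjusted p was under 0.05, with the dashed line at the median of all genes tested. Mcm4 lies farthest to the left in exonic signal at -0.69, and all 10 genes lie above 0 in intronic signal, where the median of all genes is 0.65.

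The sequences before the start sites of Mcm2 and Mcm6, both lower in labeled RNA, and of Mcm5, which was not called, are shown because genes of this group are known as targets of E2F transcription factors, which bind sites of the kind searched here. The measurements do not bear on binding. RefSeq promoter windows on GRCm38.p6, from 250 bases before to 50 after a start site, were matched for 8 of the 10 members, all but Mcm4 and Gmnn. The 250 bases upstream of the start site are printed 5′ to 3′, with matches to the words TTTCCCGC, TTTGGCGC, TTTCGCGC or TTTGCCGC on either strand in capitals. Overlapping matches run together. The windows are chr6:88898781-88899030 (minus strand), chr1:128359706-128359955 (minus strand) and chr8:75109259-75109508 (plus strand).
Mcm2: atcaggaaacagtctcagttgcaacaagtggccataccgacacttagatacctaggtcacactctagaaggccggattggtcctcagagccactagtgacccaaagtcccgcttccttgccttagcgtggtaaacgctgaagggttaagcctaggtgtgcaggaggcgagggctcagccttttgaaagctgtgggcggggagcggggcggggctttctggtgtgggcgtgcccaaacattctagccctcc
Mcm6: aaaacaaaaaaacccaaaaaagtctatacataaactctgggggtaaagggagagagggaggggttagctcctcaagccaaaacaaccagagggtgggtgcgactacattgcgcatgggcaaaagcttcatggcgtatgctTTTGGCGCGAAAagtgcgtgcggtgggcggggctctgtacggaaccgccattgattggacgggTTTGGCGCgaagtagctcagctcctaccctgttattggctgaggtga
Mcm5: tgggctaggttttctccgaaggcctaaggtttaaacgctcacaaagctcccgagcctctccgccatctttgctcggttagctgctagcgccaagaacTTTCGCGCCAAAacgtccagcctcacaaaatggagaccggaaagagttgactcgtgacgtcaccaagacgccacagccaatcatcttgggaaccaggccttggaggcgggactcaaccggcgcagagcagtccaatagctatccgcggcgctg
Mcm6 holds 3 matches before its start site, of which 2 overlap on opposite strands at -110 to -103 and -106 to -99, and the third lies at -47 to -40. Mcm5 holds an overlapping pair of the same words at -153 to -146 and -149 to -142. Mcm2 holds none. Over the whole windows at least 1 word was found in 6 of 8 genes (Mcm3, Mcm5, Mcm6, Mcm7, Cdt1 and Cdc6), compared with 2.26% of 32851 windows of the same length. The letters CCAAT, on either strand, were found in 6 of 8 genes and 37.4% of windows, and TTTGAA, the core of the CHR element, in 1 (Mcm2) and 17.9%. Mcm7 has 2 windows, and the first words lie in 1 of them, while CCAAT lies in both. Counted by window, as over all windows, the first words were found in 6 and CCAAT in 7. A match is a description of letters and not a binding site, and the words do not separate the genes that were lower in labeled RNA from those that were not.

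Intronic signal of the licensing genes was higher in labeled than in total RNA, as it was for genes in general. Of 10 members 7 rose (Mcm2, Mcm3, Mcm4, Mcm7, Mcm10, Cdt1 and Cdc6) and none fell, beside 30.2% of 14780 genes that rose and 0.21% that fell (30.4% in either direction). The median log2 difference was 0.85 over the members and 0.65 over all genes tested. Intronic levels of Cdt1 were 29.4, 89.1 and 161 in labeled RNA (lowest, median and highest library) and 19.5, 30.0 and 38.6 in total RNA. Its log2 difference of 1.41 ± 0.37 (SE, limma adjusted p = 0.012) was the highest of the members, although its libraries overlapped.

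Mcm3 and Mcm2 were the members whose intronic libraries did not overlap, as in 16.1% of all genes tested. Intronic levels of Mcm3 were 39.4, 74.2 and 145 in labeled RNA against 24.8, 30.4 and 34.5 in total RNA, with a log2 difference of 1.23 ± 0.30 (SE, limma adjusted p = 0.00889). Those of Mcm2 were 15.8, 31.1 and 37.9 against 8.17, 12.7 and 14.7, with a log2 difference of 1.10 ± 0.27 (SE, limma adjusted p = 0.01). In both genes the lowest labeled RNA library was still above the highest total RNA library. The remaining members that rose had log2 differences of 1.17 for Mcm7, 0.86 for Mcm4, 0.85 for Mcm10 and 0.84 for Cdc6, with limma adjusted p-values from 0.0145 to 0.0491. Cdc6 lost its call with a pseudocount of 20, without the variance trend or without the filter (limma adjusted p from 0.0503 to 0.0562). Mcm5 (0.73, limma adjusted p = 0.0549), Gmnn (0.70, 0.102) and Mcm6 (0.64, 0.136) were not called. A further fit, called the replicate block, paired the labeled and total RNA libraries of the same time and replicate number. With this block Mcm5 passed as well (limma adjusted p = 0.0292).

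The rise of intronic signal relative to that of all genes was smaller. After the median of each library was set to the same value, which took 0.70 from the log2 difference of each member, Mcm2 (0.39) and Mcm3 (0.52) remained higher and the other 8 were not called, with Mcm6 at -0.063. Of all genes tested, 5.56% were higher and 6.74% lower in that fit. Without the labeled RNA libraries of replicate 2 at 15 and 60 min all 10 members were called higher, as were 88.8% of all genes tested.

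Intronic relative to exonic signal, a measure of how much of a gene's RNA is unspliced, rose in labeled RNA for 7 of 10 members and fell for none, beside 25.5% of 10228 genes that rose and 0.205% that fell (25.7% in either direction). Mcm2 and Mcm4 had the largest log2 differences of this ratio, 1.56 ± 0.36 and 1.55 ± 0.36 (SE, limma adjusted p = 0.0104 and 0.011). Intronic signal of Mcm2 was 2.85% ± 0.611 of exonic signal in total RNA and 9.44% ± 4.02 in labeled RNA (SD, n = 6 each). For Mcm4 the shares were 3.06% ± 0.671 and 9.83% ± 4.28 (SD, n = 6 each). The ratio was higher in labeled RNA in 6 of 6 pairs of libraries for each of the 6 ring subunits. It was higher in 5 of 6 pairs for Mcm10, Cdt1 and Gmnn and in 4 of 6 for Cdc6.

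Mcm3 (1.46), Mcm7 (1.36), Mcm6 (1.13), Mcm10 (0.97) and Mcm5 (0.93) also rose, with limma adjusted p-values from 0.0148 to 0.049. Cdt1 (1.35, limma adjusted p = 0.0624), Cdc6 (0.80, 0.121) and Gmnn (0.40, 0.432) were not called, and Cdt1 passed with the replicate block (limma adjusted p = 0.0338). The share of Cdt1 spread the most, from 7.71% to 132% of exonic signal over the labeled RNA libraries and from 9.07% to 25.1% in total RNA. Cdt1 lies within the span of the annotated gene Gm20388 on the same strand, so its intronic reads cannot be told apart from those of that gene.

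Set against the median of all genes, Mcm2, Mcm3 and Mcm4 kept a higher ratio (log2 differences of 0.83, 0.73 and 0.82, limma adjusted p = 0.00751, 0.0153 and 0.0134), while Gmnn changed sign (-0.33, not called). Of all genes, 5.49% were higher and 4.54% lower there. Without the labeled RNA libraries of replicate 2 at 15 and 60 min all 10 were called, beside 82.2% of all genes. Without replicate 1 none of the 10 was called, beside 3.98% of all genes.

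**Figure D3:**
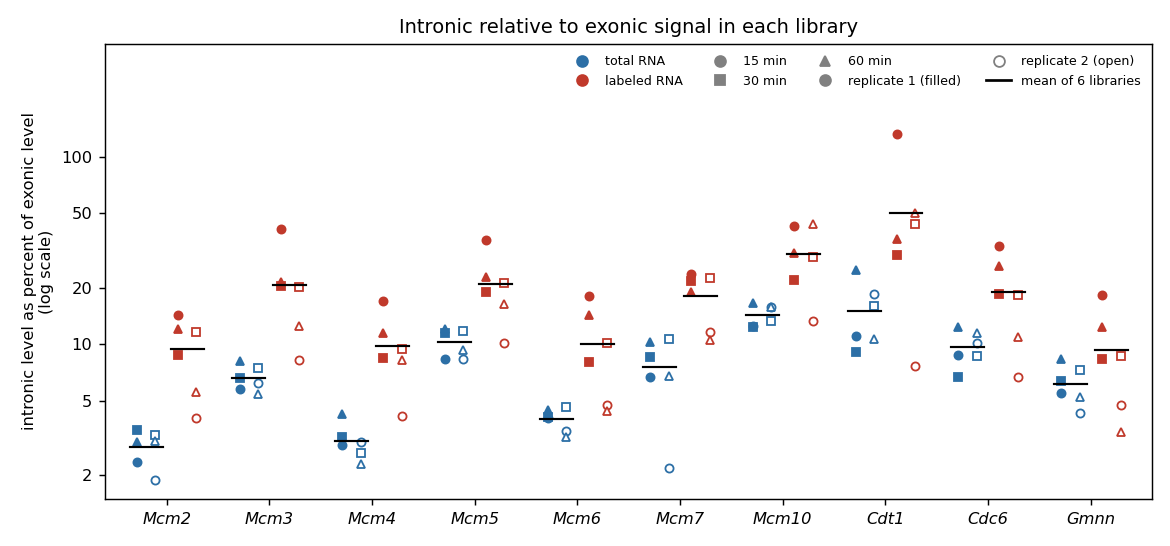
Intronic level as a percent of the exonic level (vertical axis, log scale) for each licensing gene in the 6 total RNA (blue) and 6 labeled RNA (red) libraries, with symbols for labeling time, fill for replicate and bars for means. The mean of every gene, ring subunit or not, is higher in labeled than in total RNA. For all genes but Mcm10 and Cdt1 the open circle and open triangle, replicate 2 at 15 and 60 min, are the lowest of the labeled RNA libraries.

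Labeling time did not separate the members. Between 60 and 15 min, 0 of 10 members were called in labeled RNA, 0 in total RNA and 0 for the change in the labeled to total difference. No gene of the 13977 tested was called in these comparisons (0%), with 178, 108 and 162 at an unadjusted p under 0.05. Each of the 6 groups has 2 libraries. Log2 differences of the members in labeled RNA ran from -0.44 to 0.22, and 10 of 10 members took both signs over the alternatives tried, so no direction is given for any of them. In total RNA the members ran from -0.15 to 0.02.

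Transcripts of the 4 members with several isoforms were examined separately. Overlapping isoforms of a gene share reads, so their values are not separate measurements. Mcm7 has 10 measured transcripts, Mcm10 10, Cdc6 4 and Gmnn 2, and the other 6 members have 1 each. Of the 32 transcripts, 3 were lower in labeled RNA, which are the single transcripts of Mcm2, Mcm4 and Mcm6, and 1 was higher, beside 12% lower and 5.28% higher (17.3% in either direction) of 45537 transcripts. The higher one is ENSMUST00000125201, a retained-intron transcript of Mcm10 of 4 exons (chromosome 2 from 4920067 to 4926145, mm9, minus strand). It was at 67.8 ± 7.09 in total RNA and 98.6 ± 19.8 in labeled RNA (SD, n = 6 each), a log2 difference of 0.52 ± 0.16 (SE, limma adjusted p = 0.0428). Of the coding transcripts of Mcm10, ENSMUST00000027980 was at 195 ± 26.0 and 188 ± 53.7 and ENSMUST00000102985 at 146 ± 10.8 and 141 ± 33.5 (SD, n = 6 each), and neither was called. With the replicate block 2 of the 32 transcripts were called, those of Mcm4 and Mcm6. The transcript of Mcm2 and ENSMUST00000125201 of Mcm10 were not. Of all transcripts, 6.12% were lower and 3.7% higher with the block. Without the labeled RNA libraries of replicate 2 at 15 and 60 min 6 were called, the same 4 and, both lower, the Mcm3 transcript (-0.34) and the retained-intron transcript ENSMUST00000146257 of Mcm10 (-0.37, limma adjusted p = 0.0489), beside 16.3% lower and 11.6% higher of all transcripts.

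In Mcm7 the transcript with the highest exonic level was ENSMUST00000125316, a retained-intron transcript at the 3′ end of the gene (chromosome 5 from 138605828 to 138606944, mm9, minus strand). It was at 720 ± 132 in total RNA and 610 ± 77.4 in labeled RNA (SD, n = 6 each), while the 15-exon coding transcript ENSMUST00000000505 was at 371 ± 38.3 and 303 ± 36.2 (SD, n = 6 each). Neither was called (limma adjusted p = 0.239 and 0.0964). The first lies within the span of the second, so reads they share cannot be assigned to either with certainty. The order of their levels does not show which isoform prevails. An exon of the retained-intron transcript holds the hairpins of Mir25 and Mir93, which with Mir106b form a microRNA cluster inside Mcm7. Mature microRNAs were not measured here. Their main mature sequences are shown because they lie within this gene, with the seed (bases 2 to 8) in capitals, from RefSeq on GRCm38.p6 at chr5:138165787-138165807, chr5:138165574-138165596 and chr5:138165332-138165353 on the minus strand.
miR-106b-5p: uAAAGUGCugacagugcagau
miR-93-5p: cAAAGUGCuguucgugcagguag
miR-25-3p: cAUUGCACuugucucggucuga
miR-106b-5p and miR-93-5p share their seed, and that of miR-25-3p differs. Mcm7 also overlaps the antisense genes Ap4m1 by 421 bases and Cops6 by 64 bases at its ends. The start site of Mcm4 lies 465 bases from that of Prkdc on the opposite strand.

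**Figure D4:**
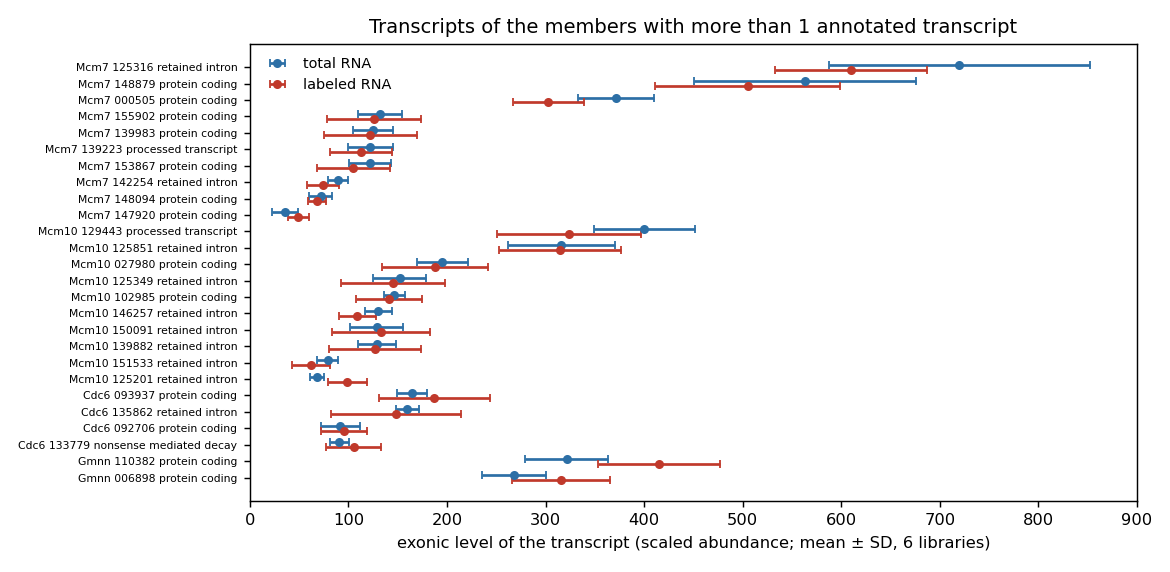
Exonic level (horizontal axis, scaled abundance, mean with SD over 6 libraries) of each measured transcript of Mcm7, Mcm10, Cdc6 and Gmnn in total RNA (blue) and labeled RNA (red), named by gene, the last digits of the transcript identifier and its annotated type. The retained-intron transcript ENSMUST00000125316 of Mcm7 is the highest at 720 in total RNA, and ENSMUST00000125201 of Mcm10 is at 67.8 in total and 98.6 in labeled RNA.

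Rates of synthesis, processing and degradation were computed in their simplest form, as labeled exonic level per hour, synthesis over intronic total RNA, and synthesis over exonic minus intronic total RNA. They were averaged over the 3 labeling times, with no test, and are set beside the quartiles of all genes with a rate. Degradation rates restate the labeled to total comparison of exons and are no independent measure. Synthesis rates restate the labeled exonic level, and processing rates set that level against intronic total RNA. Neither of them is an independent measure either. All libraries have nearly the same total, and the degradation rate fell from each labeling time to the next in 94.7% of 9382 genes with a rate at all times (its median was 4.76 per hour at 15 min and 1.16 at 60 min), so only the order of the rates is described.

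Mcm4, Mcm6 and Mcm2 had the lowest degradation rates of the members, at 1.53, 1.69 and 1.75 per hour, or at the 2.26, 5.26 and 6.78 percentiles of 9764 genes. Replicates gave 1.28 and 1.79 for Mcm4, 1.63 and 1.75 for Mcm6, and 1.59 and 1.91 for Mcm2, all below the median of all genes, 2.78. The other subunits followed, with Mcm3 at 2.14, Mcm7 at 2.18 and Mcm5 at 2.32 per hour. Mcm10 at 2.72, Cdc6 at 2.88, Gmnn at 2.94 and Cdt1 at 3.10 lay near that median, and Cdt1 differed between replicates, with 2.11 and 4.66 per hour. On average the 6 ring subunits had lower values than the 4 genes that load, block or activate the ring, although in replicate 1 Cdt1 (2.11) was below Mcm7 (2.17). Without the labeled RNA libraries of replicate 2 at 15 and 60 min Mcm4, Mcm2 and Mcm6 were again lowest. They were at 1.30, 1.54 and 1.60 per hour (percentiles 1.23, 5.06 and 6.59). There Cdt1 at 2.101 lay close to the subunits Mcm7 at 2.075 and Mcm5 at 2.077. Cdc6 was at 2.25, beside 2.63 for the median of all genes.

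Processing rates of all 10 members were above the median of all genes, 13.3 per hour. Mcm2 was highest at 68.2 per hour, with 56.2 and 84.2 in the replicates, followed by Gmnn at 49.6 and Mcm4 at 49.5, and Mcm10 was lowest at 16.7. Synthesis rates per transcript were above the median of all genes, 132 abundance units per hour, for 10 of 10 members. Mcm6 was highest at 1002 and Cdc6 lowest at 336, and Gmnn, at 832, was nearer to Mcm3 (927) and Mcm4 (925) than to Cdt1 (561). As means over transcripts, these rates too are lowered where low transcripts are annotated. Without those libraries all 10 members stayed above the median of all genes in both rates, with Cdt1 lowest in processing at 13.2 beside a median of 12.8.

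**Figure D5:**
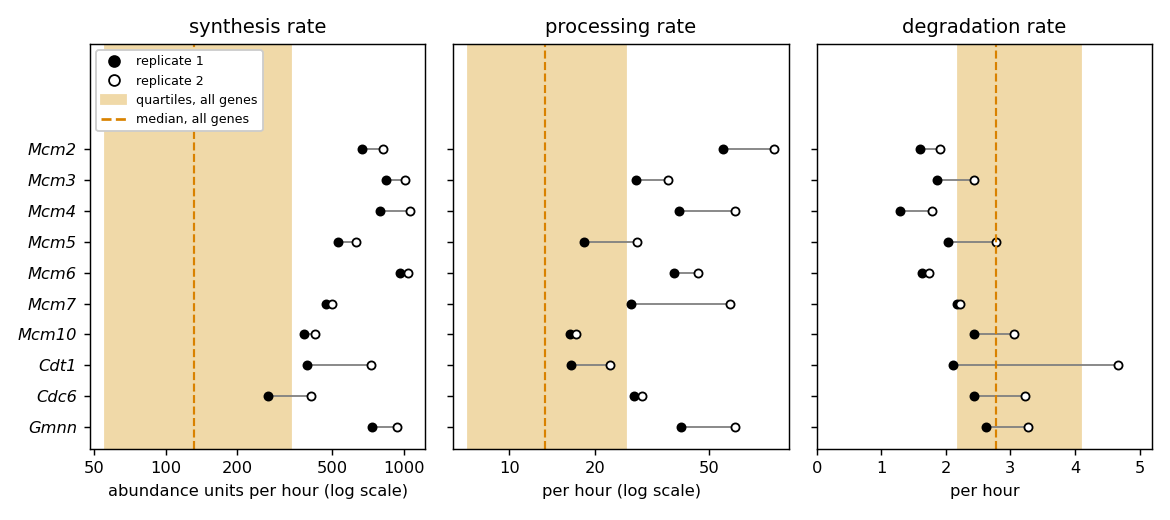
Rates of synthesis (left, log scale), processing (middle, log scale) and degradation (right) of each licensing gene in replicate 1 (filled) and replicate 2 (open), with the quartiles of all genes shaded and their median dashed. Mcm2, Mcm4 and Mcm6 lie below the lower quartile of degradation, 2.19 per hour, in both replicates, and every processing and synthesis value lies above the median of all genes.

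Other genes of DNA replication were taken from a list of 75 genes. In exonic signal 72 of them were tested. Labeled RNA was higher for 2 and lower for 12, and the median log2 difference was -0.12, beside 5.28% higher, 11.6% lower and a median of -0.05 over all genes tested. Of 27 replication fork genes, such as polymerase subunits, 2 were higher and 6 lower. Of 6 genes of the turnover of licensing factors 3 were lower, with Ddb1 at -0.81 ± 0.12 and Cul4b at -0.78 ± 0.15 (SE, limma adjusted p = 0.00183 and 0.00633). Both encode parts of the ubiquitin ligase that removes Cdt1 in S phase. In the same group Cul4a (-0.21, limma adjusted p = 0.185), Dtl (-0.07, 0.842) and Fzr1 (-0.12, 0.719) were not called. Tfdp1, the dimerization partner of E2F factors, fell by 0.68 on the log2 scale (SE 0.09, limma adjusted p = 0.0014) and was the only one called of 12 E2F and Rb genes.

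The 2 genes that were higher, Pole3 (0.49, limma adjusted p = 0.0147) and Rpa2 (0.57, limma adjusted p = 0.0259), encode a subunit of DNA polymerase epsilon and a subunit of the single-strand binding protein RPA. None of the 6 origin recognition genes and none of the relatives Mcm8, Mcm9 and Mcmbp was called. Of 12 origin firing genes 1 was lower (Topbp1), and of 6 genes of nucleotide supply 1 was lower (Rrm1), both named after their values were seen. With the replicate block 6 of the 72 genes were called, 1 higher and 5 lower, beside 3.26% higher and 5.83% lower of all genes. Rpa2 was not called with the block (limma adjusted p = 0.0659), and without either replicate 0 of the 72 genes were. Leaving out the labeled RNA libraries of replicate 2 at 15 and 60 min gave 4 higher and 14 lower, beside 8.49% and 14.7% of all genes. Rpa2 again lost its call (limma adjusted p = 0.0538). In intronic signal 31 of 73 list genes rose, beside 30.2% of all genes, and 25 of 72 rose in the ratio, beside 25.5%, with none lower in either. Median centring left 6 higher and 4 lower in intronic signal, beside 5.56% and 6.74% of all genes. In the ratio it left 4 higher and 3 lower, beside 5.49% and 4.54%. Without the labeled RNA libraries of replicate 2 at 15 and 60 min 70 and 69 were higher, beside 88.8% and 82.2% of all genes.

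The genes whose levels over the 12 libraries were most like the mean profile of the members were Rnf220 (Pearson r = 0.97), Wee1 (0.96), Eef1d (0.95), Lpar1 (0.95) and Gm7856 (0.95). Wee1 encodes a kinase that holds back entry into mitosis. The members' own r with that profile, to which each contributes, ran from 0.06 for Gmnn and 0.37 for Mcm7 to 0.86 for Mcm2 and 0.89 for Mcm3. Over the 10 libraries left without those of labeled RNA of replicate 2 at 15 and 60 min, other genes came first (Gm15198 at 0.98), with Wee1 and Rnf220 at 0.96. These values describe libraries that share cultures. As the libraries are of bulk cells, fewer cells that express a gene and less RNA per cell cannot be told apart.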

How the data were processed

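Per the study's methods and the submitters' processing notes, the authors removed reads on ribosomal RNA with STAR 2.5.0, aligned the rest to exons and introns with STAR and quantified them with RSEM, and the notes name mm10. The deposited values are a signal: length-normalized abundances that sum to nearly the same total in each library, with the lowest at 1.01. How they were scaled is not given in the sources used here, depth is unknown from them, and no counting error was computed. Absent values were taken as 0.

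Transcripts were joined to genes with GENCODE M1 (mm9), in which 83847 of 111672 Ensembl transcripts were found, and 3 of 35 member transcripts were not listed. Gene levels for tests were sums over transcripts on log2(value + 1), which understates changes of low genes, filtered at a mean of 20 (exonic) or 5 (intronic). limma 3.58.1 in R 4.3.3 was fitted to all features with labeling time as a covariate, or to 6 groups for time contrasts, with Benjamini-Hochberg adjustment at 0.05, and was tested on simulated data. Python 3.11.15, pandas 2.3.3, numpy 2.4.6, scipy 1.17.1 and matplotlib 3.10.9 were used otherwise. Libraries of one number share a biological replicate per the labels, with correlations of deviations of -0.07, 0.05 and -0.19 at 15, 30 and 60 min. Members and lists were chosen with earlier results of these data known. Genes named by rule outside the members are at most 3 list genes with the largest called differences in each direction (2 were higher) and the 5 most alike in profile. For transcripts they are the highest of a gene and those called. Others, such as markers and list genes named with a count, were named beside their counts.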

Additional observations from a re-analysis of the deposited data

Results flagged for a closer look

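In 2 of 40 groups of 6 libraries, formed by member, signal and RNA kind, a single library stood apart from the rest, measured as its gap to the nearest library over the range of the group, and chance alone would give about 2. The intronic level of Mcm3 was 145 in labeled RNA at 15 min of replicate 1, and the next highest of the group was 77.5. The exonic level of Cdc6 was 211 in labeled RNA at 15 min of replicate 2, where the next highest was 142. The first library has the highest intronic share of all (14.8%), and the second is one of the labeled RNA libraries whose intronic share lies within that of total RNA (7.24%). The part of these shares in the values was not tested.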

How the results depend on the processing

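Mcm2, Mcm4 and Mcm6 were lower in labeled RNA in 9 of 11 settings and lost only the call, not the direction, without either replicate (0 called of 10 genes and of 32 transcripts in both cases). Another pseudocount, no filter, no variance trend, median centring or means over transcripts left the exonic count at 3, and 0 members were called between 60 and 15 min in every setting run. Leaving out libraries gave 0 to 18 calls in the replication list, with 0 without either replicate. With the replicate block the exonic calls of all genes fell from 2353 to 1270. Member transcripts called fell from 4 to 2 and replication list genes from 14 to 6. Of the members' gene-level calls the block changed those given above alone, but the exonic call of Mcm2 was then at the threshold (limma adjusted p = 0.0498). With the replicate numbers crossed at 60 min, an alternative chosen after seeing the data as were the fits without the replicate 2 libraries and those on transcript means, 2716 genes were called. A pseudocount of 20, no variance trend or no filter each gave 6 intronic calls, beside 28.3%, 30.1% and 22.7% of all genes higher. Median centring left 2 intronic and 3 ratio calls (5.56% and 5.49% of all genes higher), and no filter 4 ratio calls (11.9% of all genes higher). Leaving out a replicate gave 2 to 8 intronic and 0 to 8 ratio calls. Cdt1 and Cdc6 exonic differences turned to -0.21 and -0.13 without the replicate 2 libraries at 15 and 60 min and ran from -0.21 to 0.34 and from -0.10 to 0.17 without either replicate. Mcm6 intronic signal turned to -0.063 and the Gmnn ratio to -0.33 with median centring, and with libraries left out the Gmnn ratio ran from -0.083 (without replicate 1) to 0.92. The causes were not tested. The median rates of the members depend on labeling time: synthesis of gene sums was 964 (660 as transcript means), with 1698, 791 and 414 at 15, 30 and 60 min, processing was 33.4, with 65.4 at 15 and 11.4 at 60 min, and degradation was 2.25, with 3.84 at 15 and 0.94 at 60 min.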
